A study of Mus musculus with 3 samples.

Results

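The interferon-induced transmembrane (Ifitm) family was followed through the cells of the mouse meninges as 4 genes, *Ifitm1*, *Ifitm2*, *Ifitm3* and *Ifitm6*, which were picked by their symbols from the 27998 genes counted. They were proposed with the levels by cell type and the stress contrast in neutrophils in view, so those values are given as a description. The libraries were made from the meninges of male C57BL/6J mice aged 10 to 12 weeks, with no transgene or mutation in the labels of any group. HC animals stayed unstressed in the home cage and gave 2 libraries (HC replicate 1 and HC replicate 2). CSD animals went through 14 days of chronic social defeat, a stress in which a mouse is repeatedly exposed to a dominant aggressor, and gave 1 library (CSD replicate 1). Scent marking and open field behaviour had served to find the susceptible animals. Each library was a pool of 4 mice, so values of single animals cannot be seen, and each ran in its own lane of 1 chip. Live nucleated single cells were sorted before capture. A UMI is a molecular tag that stands for 1 captured RNA molecule. Because the tags sit at the 3' end of the RNA, 1 molecule gives 1 tag whatever the length of the gene.

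IFITM proteins are small membrane proteins of the cell surface and endosomes that hold back the entry of enveloped viruses. Several of their genes are switched on by type I interferons through the receptor chains IFNAR1 and IFNAR2 and the transcription factors downstream of them, while part of the expression does not need interferon. *Ifitm3* is the best known antiviral member, *Ifitm2* is its close relative, *Ifitm1* acts mainly at the cell surface, and *Ifitm6* is a rodent member found in myeloid cells. Neutrophils, the short-lived granule-bearing phagocytes, are made in the bone marrow and pass through proliferating and granule-filling stages before they mature.

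The 4 genes lay within 63.1 kb of chromosome 7 (mm10, GENCODE annotation), with *Ifitm5* beside them. *Ifitm2* (ENSMUSG00000060591) spanned chr7:140954837-140955987 on the minus strand, *Ifitm1* (ENSMUSG00000025491) chr7:140967221-140969825 on the plus strand, *Ifitm3* (ENSMUSG00000025492) chr7:141009586-141010770 and *Ifitm6* (ENSMUSG00000059108) chr7:141015699-141017924, both on the minus strand. *Ifitm2* and *Ifitm3* had 2 exons each, and transcripts of *Ifitm1* and *Ifitm6* had 2 to 3. The transcripts resembled each other. Aligned bases were identical at 76.5% between *Ifitm2* and *Ifitm3*, at 74.1% between *Ifitm1* and *Ifitm3* and at 68.2% between *Ifitm1* and *Ifitm6*, and the longest exact run that a pair shared was 69 bases, in *Ifitm2* and *Ifitm3*. A read that lies wholly inside such a run cannot be given to 1 of the pair. Where the runs lie in the transcripts, and whether they touch the counts of *Ifitm2* and *Ifitm3*, was not examined.

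The stretch before each start is shown because the members' levels moved in the same direction in neutrophil-like cells but by different amounts. The 300-base windows around the RefSeq starts (GRCm38.p6, 250 bases before and 50 after) were searched on both strands for the core of the interferon-stimulated response element (GAAA, any pair of bases and GAAA again, or TTTC, any pair and TTTC on the other strand) and for the gamma-activated site (TTCNNNGAA, which reads the same on both strands). Of 32851 windows, 3.44% held the first (1131 windows), and 2726 windows held the second. Annotated transcripts of *Ifitm1* and *Ifitm6* begin further upstream than the RefSeq start used, so their stretches shown here lie inside the gene spans given above. The outer starts of both genes were not searched. The bases before each RefSeq start that no annotated exon of the gene covers read as follows, 5' to 3' on the gene's own strand, with motif matches in capitals.

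Ifitm1, chr7:140967826-140968027, plus strand: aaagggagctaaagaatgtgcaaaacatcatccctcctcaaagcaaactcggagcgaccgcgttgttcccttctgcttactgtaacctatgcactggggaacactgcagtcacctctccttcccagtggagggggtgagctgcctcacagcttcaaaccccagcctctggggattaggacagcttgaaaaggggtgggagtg
Ifitm2, chr7:140955988-140956207, minus strand: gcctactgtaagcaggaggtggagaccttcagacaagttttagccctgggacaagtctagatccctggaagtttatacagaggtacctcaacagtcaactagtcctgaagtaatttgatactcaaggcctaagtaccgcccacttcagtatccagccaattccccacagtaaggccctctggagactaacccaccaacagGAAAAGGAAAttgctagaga
Ifitm3, chr7:141010771-141010990, minus strand: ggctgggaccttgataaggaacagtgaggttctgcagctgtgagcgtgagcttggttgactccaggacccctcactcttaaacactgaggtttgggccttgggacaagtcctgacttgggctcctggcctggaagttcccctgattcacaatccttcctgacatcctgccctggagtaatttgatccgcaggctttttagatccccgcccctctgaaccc
Ifitm6, chr7:141016909-141017128, minus strand: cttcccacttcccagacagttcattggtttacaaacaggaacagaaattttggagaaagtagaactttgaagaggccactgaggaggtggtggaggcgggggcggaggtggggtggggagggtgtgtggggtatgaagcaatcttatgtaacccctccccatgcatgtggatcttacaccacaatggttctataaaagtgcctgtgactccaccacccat

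The other matches lay inside annotated first exons and are shown as the shortest stretch that holds them.

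Ifitm3, chr7:141010716-141010742, minus strand: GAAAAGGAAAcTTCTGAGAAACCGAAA
Ifitm6, chr7:141016894-141016902, minus strand: TTCCTTGAA

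*Ifitm3* held 2 matches to the response element core, and a match to the gamma-activated site overlapped the second of them. *Ifitm2* held 1 match to the core, with the same 10 letters as the first of *Ifitm3*. *Ifitm6* held 1 gamma-activated site and no core, and *Ifitm1* held neither in its window. These are matches of letters and not shown to be bound.

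Of the barcodes, 7057 passed the rule of at least 500 UMIs, a number of genes within the study's limits and a mitochondrial share under 8.3%, and 6850 remained once marked doublets were left out: 2549 and 1686 from the HC pools and 2615 from the CSD pool. Their median depth was 2471, 2199 and 2319 UMIs. HC replicate 2 stood apart, with 24.1% of its UMIs in barcodes of at most 100 UMIs against 7.87% in HC replicate 1 and 5.48% in CSD replicate 1. These barcodes mostly hold RNA free in the suspension and are called empty droplets here. Pairs of libraries shared 8, 6 and 3 barcodes, where random draws of barcodes give 6.00, 9.72 and 6.36. Cells fell into 24 clusters, drawn without the Ifitm genes and named from marker lists. The neutrophil-like cells numbered 777, 598 and 1239 and made up 4 clusters. Cluster 1 was led by *Il1b*, *Cxcr2* and *Cxcl2*, genes of mature inflammatory neutrophils, cluster 3 by *Retnlg*, *Mmp8* and *Mmp9*, genes of gelatinase granules and late maturation, and cluster 2 by *Ltf*, *Camp* and *Ngp*, which encode proteins of specific granules. Cluster 20 held 62 cells of low depth, 60 of them from HC replicate 2.

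All 4 members were well counted: *Ifitm3* had 36375 UMIs in the cells, *Ifitm6* 24679, *Ifitm2* 15233 and *Ifitm1* 4143. The other genes with an Ifitm symbol were close to silent. *Ifitm10* had 252 UMIs, *Ifitm5*, which is known from bone-forming cells, 12 and *Ifitm7* 4. *Ifitm10* had 92 of its UMIs in NK cell-like cells, where its level was 86.8, 67.1 and 84.3 CPM, 55 in neutrophil-like and 34 in microglia-like cells. CPM is the usual counts-per-million scale, here of the UMIs summed over the cells of that type in a library, and lists of 3 values give first both HC libraries by number and then the CSD library.

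The members differed in their order of cell types. *Ifitm6* was highest in the neutrophil lineage, *Ifitm2* and *Ifitm3* were highest in monocyte-like cells, and *Ifitm1* was highest in a small group of mast cell and basophil-like cells. The plot of levels by cell type shows these 4 orders. Levels across cell types carry no test, since the family was proposed for its pattern there.

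**Figure D1:**
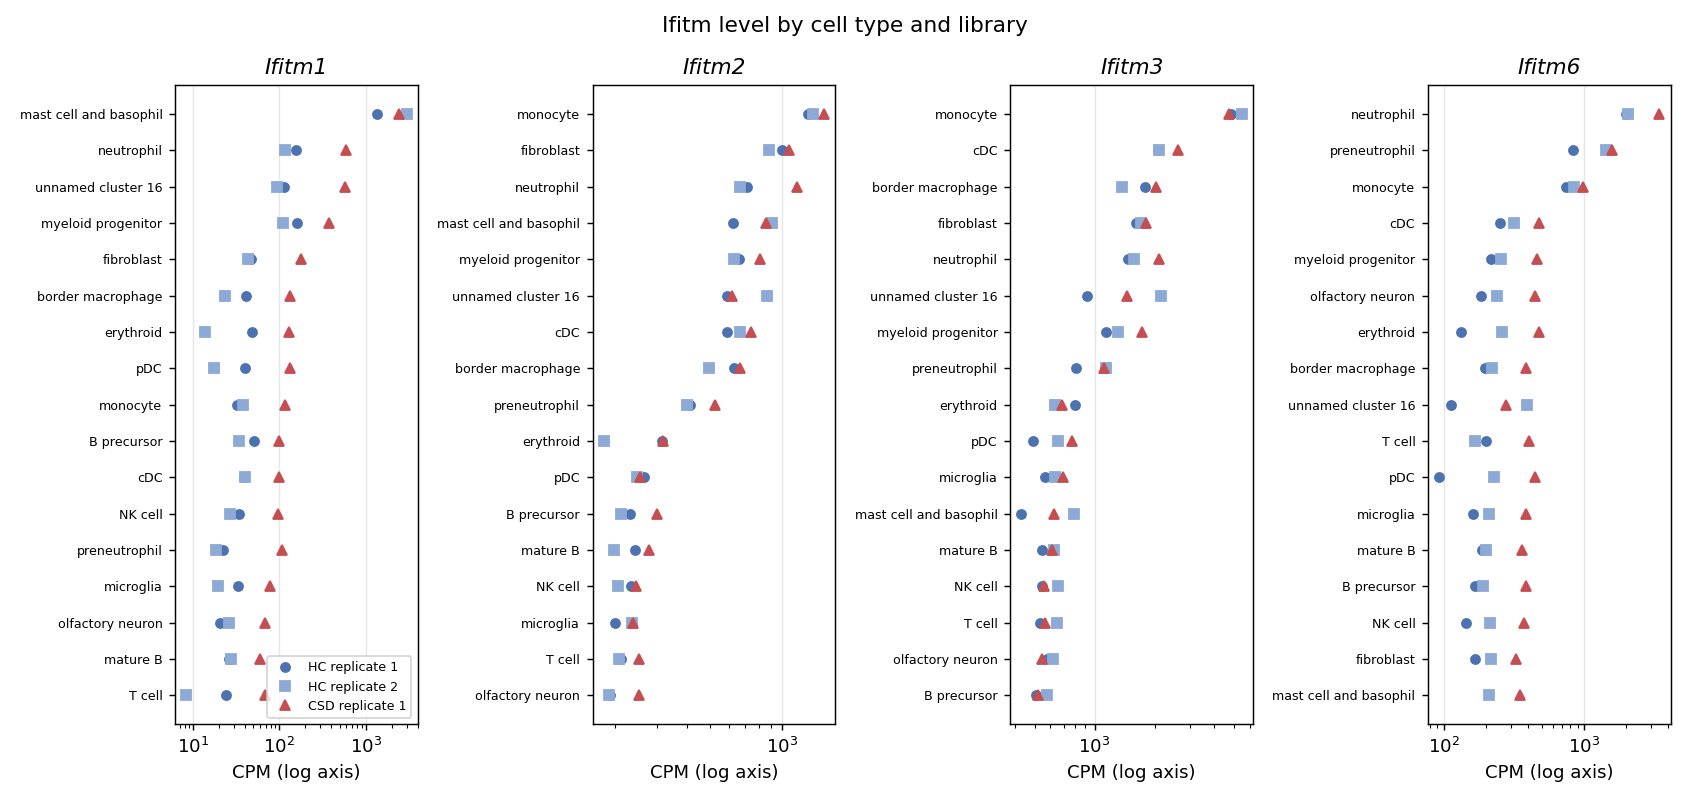
Level of each member by cell type, in CPM on a log axis, with 1 point per library and cell types ordered by the mean of the 3 libraries. *Ifitm3* separates monocyte-like cells at 4728 to 5489 CPM from all other types, *Ifitm6* is highest in neutrophil-like cells at 1977 to 3451 CPM, and a value of 0 (*Ifitm6* in mast cell and basophil-like cells of HC replicate 1) is not drawn.

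*Ifitm3* stood at 4829, 5489 and 4728 CPM in monocyte-like cells, the circulating precursors of macrophages, with a mean of 5016 ± 413 (SD, n = 3 libraries). No other cell type reached that range. Conventional dendritic (cDC)-like cells came next at 2083, 2104 and 2609 CPM, and border macrophage-like cells had 1796, 1373 and 2043. Fibroblast-like cells held 1613, 1708 and 1822 CPM and neutrophil-like cells 1473, 1573 and 2096, so these 3 types overlapped and their order cannot be told from the libraries. T cell-like, NK cell-like, mature B-like, B precursor-like and olfactory neuron-like cells lay together at means of 536 to 593 CPM.

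*Ifitm2* followed a similar order at lower levels. It was highest in monocyte-like cells, at 1279, 1337 and 1496 CPM, and no other type overlapped them when whole types were compared. Fibroblast-like cells had 882 to 1067 CPM and neutrophil-like cells 713, 663 and 1149, which overlapped. In lymphoid types the mean was 224 to 246 CPM. Across the 12 cell types with at least 25 cells in every library, *Ifitm2* and *Ifitm3* had a Pearson r of 0.96 of log2(CPM + 10), and each was the gene most like the other among 5355. *Lyz2*, the lysozyme of monocytes and neutrophils, was among the 3 most like both, at 0.91 and 0.92. *Xdh*, which encodes xanthine dehydrogenase, was close to *Ifitm2* (0.91) and *Klra2*, a receptor of the Ly49 family, to *Ifitm3* (0.93). The types share their libraries and the free RNA in them, so these values describe likeness only.

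*Ifitm6* was highest in neutrophil-like cells, at 1977, 2064 and 3451 CPM, and no other type reached their range. Preneutrophil-like cells, the dividing precursors, had 837, 1427 and 1578 CPM, and monocyte-like cells 739, 849 and 992, so these neighbours overlapped. The remaining types lay at means of 187 to 349 CPM. The genes with the pattern most like *Ifitm6* were *Thbs1*, which encodes the matrix protein thrombospondin 1 (r = 0.97), *Cd177*, a neutrophil surface protein (0.96), and *Prdx5*, a peroxiredoxin (0.96), over the same 12 types.

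*Ifitm1* reached 1374, 2990 and 2416 CPM in the mast cell and basophil-like cells, which numbered only 10, 8 and 18. It took 56.6%, 61.1% and 56.9% of all UMIs of the 4 members there, against 3.61%, 2.65% and 8.11% in neutrophil-like cells. The next 3 types overlapped and cannot be ordered: neutrophil-like cells at 156, 117 and 591 CPM, the unnamed cluster 16 at 114, 94.8 and 575 and myeloid progenitor-like cells at 160, 111 and 375. *Bmx*, a kinase of the Tec family, *Fabp5*, a fatty acid-binding protein, and *Gng12*, a G protein subunit, had the pattern most like *Ifitm1*, at r of 0.84, 0.83 and 0.82. The mast cell and basophil-like cells did not enter that measure.

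**Figure D2:**
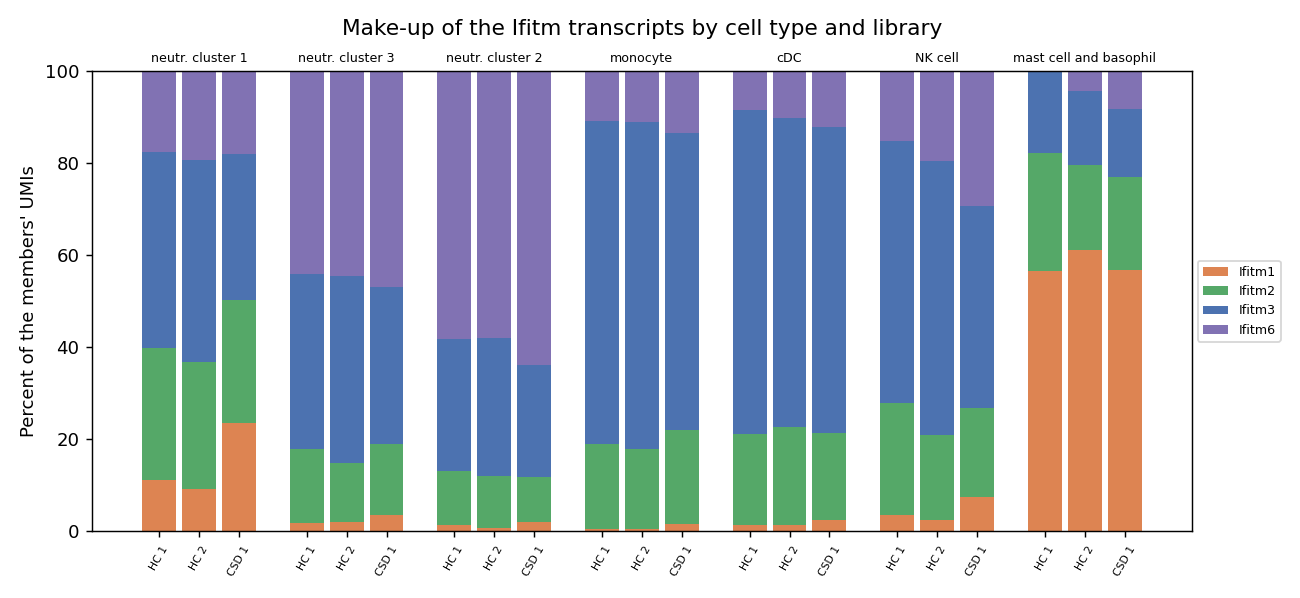
Percent of the UMIs of the 4 members that each member took, by cell type and library. *Ifitm6* takes 57.9% to 63.8% in neutrophil cluster 2 and *Ifitm3* 64.5% to 71.2% in monocyte-like cells, while *Ifitm1* takes 56.6% to 61.1% in mast cell and basophil-like cells.

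The members were spread unevenly over the stages of neutrophils as well. *Ifitm6* was highest in cluster 2, with the specific granule genes, at 2703, 2886 and 4628 CPM, lower in cluster 3 at 2014, 1897 and 3474, and lowest in cluster 1 at 614, 694 and 1308. *Ifitm1* ran the other way. It had 61, 34 and 146 CPM in cluster 2, 83, 89 and 257 in cluster 3 and 393, 331 and 1701 in cluster 1. Within each library, cluster 1 held more *Ifitm1* and less *Ifitm6* than the others. *Ifitm2* also was highest in cluster 1 (1006, 993 and 1947 CPM), while cluster 2 (545, 560 and 713) and cluster 3 (729, 547 and 1140) overlapped. *Ifitm3* varied less, between 1339 and 1763 CPM in cluster 2 and between 1719 and 2530 in cluster 3. *Ifitm1* was among the 10 leading genes of cluster 1 and *Ifitm6* among those of cluster 2, although neither took part in the clustering. *Ifitm1* lost that place with at least 1000 UMIs and with a mitochondrial share under 5%. With no correction between libraries, *Ifitm1* was among the leading genes of a cluster of 11, 44 and 821 cells but not of one of 578, 337 and 52. *Ifitm6* was then among those of a cluster of 3, 15 and 362 cells but not of one of 182, 131 and 4.

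**Figure D3:**
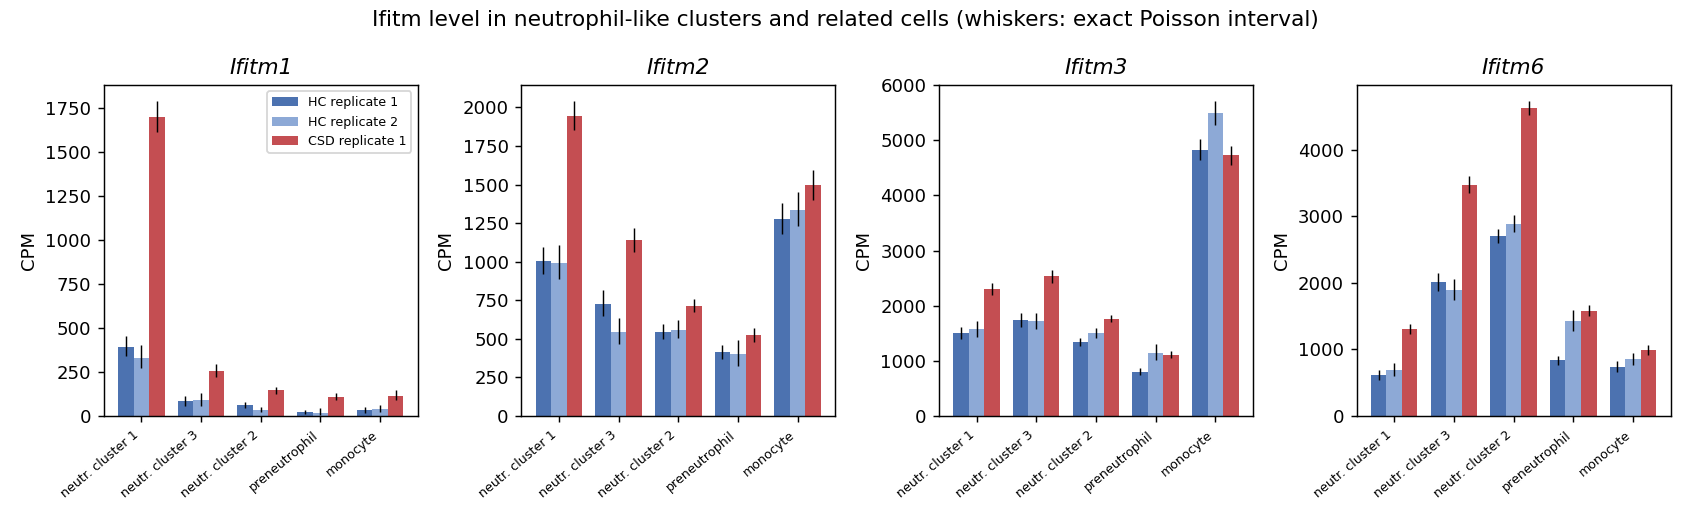
Level of each member in CPM in neutrophil-like clusters 1, 3 and 2, preneutrophil-like and monocyte-like cells, with 1 bar per library and whiskers for the exact 95% Poisson interval, which covers counting error only. The CSD bar is above both HC bars for every member in the 3 clusters, and in cluster 1 *Ifitm1* reaches 1701 CPM against 393 and 331.

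The first contrast asked whether the members differed between CSD and HC in neutrophil-like cells. All 4 were higher in the CSD library than in both HC libraries. By edgeR the log2 fold change was 2.17 (SE 0.23) for *Ifitm1*, 0.81 (SE 0.14) for *Ifitm2*, 0.53 (SE 0.10) for *Ifitm3* and 0.84 (SE 0.10) for *Ifitm6*. The level of *Ifitm1* was 591 CPM in CSD against 136 ± 27.4 in HC (SD, n = 2), that of *Ifitm2* 1149 against 688 ± 35.0, that of *Ifitm3* 2096 against 1523 ± 70.6 and that of *Ifitm6* 3451 against 2020 ± 61.4. Since this contrast stood behind the choice of the members, no p is given for them. Among all 1168 genes tested, 40.2% lay above both HC libraries in CSD. With 1 CSD library, the spread comes from the HC libraries alone and the CSD library is taken to vary like them.

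At an adjusted p under 0.05, edgeR called 0 of the 4 members and 1 of the 1168 genes (0.0856%), and 4 of the 4 had an unadjusted p under 0.05, as had 157 of all genes. DESeq2 called 15 genes, *Ifitm1* among them. The number of calls differed widely between settings. Without cluster 20, the small cluster of HC replicate 2, 18 of 1179 genes were called (1.53%), *Ifitm1* and *Ifitm6* among them, at log2 fold changes of 2.15 for *Ifitm1* and 0.83 for *Ifitm6*. With genes of at least 20 UMIs in place of genes seen in more than 15% of cells, 48 of 7833 were called (0.613%), and all 4 members were among them. Nothing is read from these counts, as the members were not chosen apart from the contrast.

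In each of the 3 larger clusters *Ifitm1* had the largest fold of the members and *Ifitm3* the smallest. In cluster 1 the log2 fold changes were 2.26 (SE 0.17) for *Ifitm1*, 1.05 (SE 0.14) for *Ifitm6*, 1.00 (SE 0.13) for *Ifitm2* and 0.63 (SE 0.13) for *Ifitm3*, and 3 of the 4 were called, all but *Ifitm3*, beside 1.68% of 773 genes. DESeq2 called 1 of the 4 there, and 0 were called by edgeR with the empty-droplet profile subtracted. In cluster 2 they were 1.66 (SE 0.30), 0.83 (SE 0.14), 0.46 (SE 0.16) and 0.41 (SE 0.14) in that order, and *Ifitm6* was called beside 0.588% of 1871 genes, in 1 of 3 alternatives and neither by DESeq2 nor after subtraction. In cluster 3 they were 1.63 (SE 0.21), 0.87 (SE 0.18), 0.87 (SE 0.25) and 0.60 (SE 0.18), and *Ifitm1* was called beside 0.238% of 1260 genes, in 1 of 3 alternatives and neither by DESeq2 nor after subtraction. It was seen in 14.7% of the HC cells and 38.4% of the CSD cells of cluster 3, so it passed the filter of 15% through the CSD library and that call is not read. CSD lay above both HC libraries for all 4 members in each cluster, where 36.9%, 35.5% and 36.0% of genes did. The clusters are parts of the neutrophil-like cells of the same libraries, so nothing is read from the calls of members in them either. Whether the folds differed between the clusters was not tested. The make-up of the family also differed in cluster 1, where *Ifitm1* took 11.2%, 9.22% and 23.4% of the members' UMIs.

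More neutrophil-like cells carried a member's UMI in the CSD library. Every cell was thinned to 500 UMIs, which left out none. *Ifitm1* was then found in 8.62% (95% exact binomial interval 6.74 to 10.8), 5.85% (4.11 to 8.05) and 23.9% (21.5 to 26.4) of cells, and *Ifitm6* in 42.3%, 46.3% and 60.7%. Without thinning the shares were 20.2%, 14.4% and 46.2% for *Ifitm1* and 68.5%, 68.6% and 84.0% for *Ifitm6*. In NK cell-like cells, taken as the background, the thinned shares were 0.613%, 1.83% and 5.85% for *Ifitm1* and 7.36%, 5.50% and 14.9% for *Ifitm6*. Median depths were 1911, 1638 and 2065 UMIs in the neutrophil-like and 2238, 2579 and 2023 in the NK cell-like cells. Thinned cells with at least 3 of the 4 members were also more frequent: 7.85%, 8.70% and 23.4% held 3 and 0.386%, 0.167% and 3.87% held all 4.

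Markers of other cells moved beside these values. In neutrophil-like cells the summed level of the erythroid list was 1396, 2420 and 3676 CPM (9, 10 and 10 of 11 genes with a UMI), and that of the fibroblast list 546, 571 and 67.5 CPM (11, 11 and 10 of 11). The mast cell and basophil list, whose cells are richest in *Ifitm1*, summed to 270, 207 and 298 CPM with 9, 8 and 9 of 10 genes. The 6 neutrophil genes used to trace free RNA (*S100a8*, *S100a9*, *Retnlg*, *Camp*, *Ngp* and *Lcn2*) were all higher too, with a median log2 fold change of 0.25. The part of these in the members' folds was not tested. In bulk sums of this kind, a change in how many cells express a gene and a change in RNA per cell cannot be told apart.

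**Figure D4:**
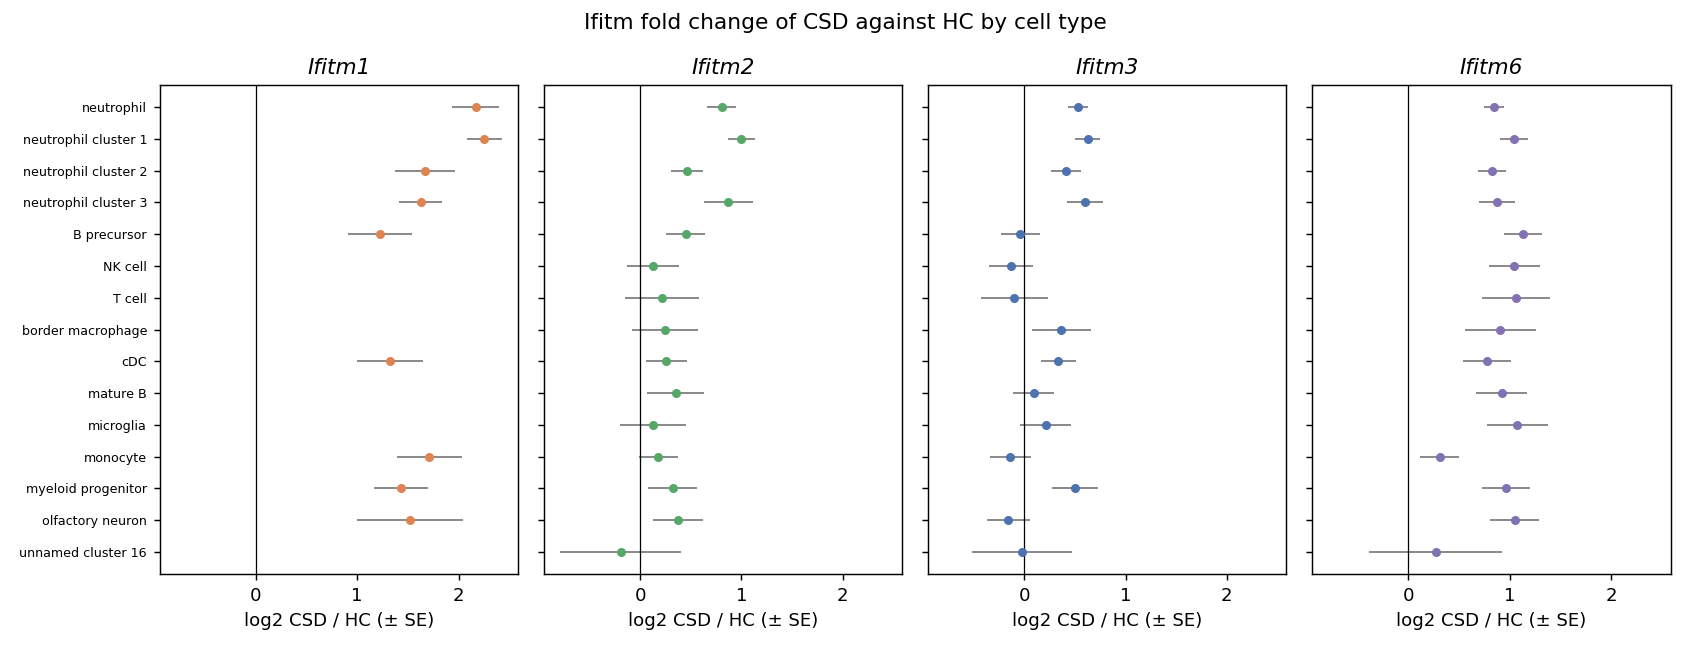
Log2 fold change of CSD against HC by edgeR for each member (points) with its standard error (bars), in each cell type with at least 25 cells in every library. *Ifitm1* and *Ifitm6* lie above 0 in the types in which they were tested, although *Ifitm1* passed the filter only through the CSD library in B precursor-like and olfactory neuron-like cells. With the empty-droplet profile subtracted *Ifitm1* turns to -3.43 in olfactory neuron-like cells and *Ifitm6* to -6.20 in cluster 16. Both of these rest on CSD levels that fell below 0 and were set to 0. *Ifitm3* spans -0.16 to 0.50 outside neutrophils.

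The second contrast asked whether the members differed with CSD in the 11 other cell types that had enough cells. Of 38 tests of a member in a type, 2 passed: *Ifitm1* in monocyte-like and *Ifitm6* in NK cell-like cells. Other settings called members in other types as well, such as myeloid progenitor-like cells. By unadjusted p, 16 of the 38 were under 0.05 by edgeR, where 3.56% to 9.46% of all genes were in these types, and DESeq2 called 0 of the 38. The 38 and the 16 both include *Ifitm1* in B precursor-like and olfactory neuron-like cells. It passed the filter there only through the CSD library, so the count of 16 is not read as a result. Over all genes the share called was 1.16% in monocyte-like, 1.52% in NK cell-like, 0.63% in T cell-like, 0.0491% in B precursor-like, 0.0868% in mature B-like, 0.0% in cDC-like, 0.419% in border macrophage-like, 0.0577% in microglia-like, 0.132% in myeloid progenitor-like and 0.0264% in olfactory neuron-like cells, and 0.756% in the unnamed cluster 16. *Ifitm1* passed the filter on cells in 5 of these types, and *Ifitm2*, *Ifitm3* and *Ifitm6* in all 11. In the others *Ifitm1* was seen in at most 14.3% of cells, below the 15% required.

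In monocyte-like cells, *Ifitm1* rose from 32.5 and 37.7 to 116 CPM, a log2 fold change of 1.71 (SE 0.32, adjusted p = 0.00151 by edgeR) where 1.16% of 3109 genes were called. The level in CSD stayed far below that of *Ifitm3* in the same cells. The call held in 3 of 8 alternatives, with adjusted p from 1.91e-05 to 1.000, and the fold lay between 1.46 and 1.80. In empty droplets *Ifitm1* stood at 75.8, 79.4 and 349 CPM, and the summed immature neutrophil list was 12311, 12231 and 16985 CPM in the monocyte-like cells with all of its 10 genes present. Once each library's empty-droplet profile was subtracted, the fold was 1.46 with an adjusted p of 0.680. *Ifitm2* had a log2 fold change of 0.18 (SE 0.19, adjusted p = 0.841) and *Ifitm6* of 0.31 (SE 0.19, adjusted p = 0.667). *Ifitm3*, the main member of monocyte-like cells, had -0.14 (SE 0.20, adjusted p = 0.911), and its CSD level of 4728 CPM was below both HC levels.

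In NK cell-like cells, lymphocytes that kill infected cells, *Ifitm6* rose from 145 and 215 to 372 CPM, a log2 fold change of 1.05 (SE 0.25, adjusted p = 0.00292 by edgeR) where 1.52% of 1650 genes were called. The call held in 1 of 8 alternatives, with adjusted p from 0.00824 to 1.000 and log2 fold changes from 1.00 to 2.35. The highest, 2.35 (SE 1.40), came with the empty-droplet profile subtracted, where the call was lost. Subtraction left HC replicate 1 at -18.8 CPM, which was set to 0 before that fit. The summed immature neutrophil list was 8461, 10047 and 12298 CPM in these NK cell-like cells, and its part in the fold was not tested. The other lymphoid types gave folds of a like size. *Ifitm6* had 1.13 (SE 0.19, adjusted p = 0.182) in B precursor-like, 1.06 (SE 0.34, adjusted p = 0.188) in T cell-like and 0.92 (SE 0.25, adjusted p = 0.448) in mature B-like cells. It also had 1.08 in microglia-like and 1.05 in olfactory neuron-like cells. Its CSD level lay above both HC levels in 10 of the 11 types, where 30.6% to 35.4% of genes did.

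*Ifitm1* was tested in 5 types, but it passed the filter on the HC cells alone in only 3 of them. In B precursor-like cells it was seen in 11.6% of HC and 22.7% of CSD cells and in olfactory neuron-like cells in 9.57% and 28.4%, so a higher CSD level was built into their passing. The other 3 had log2 fold changes of 1.71 in monocyte-like, 1.32 (SE 0.33, adjusted p = 0.935) in cDC-like and 1.43 (SE 0.27, adjusted p = 0.0721) in myeloid progenitor-like cells. *Ifitm2* spanned -0.19 to 0.45, with CSD above both HC libraries in 9 of 11 types, and *Ifitm3* spanned -0.16 to 0.50, above both in 5 and below both in 3. The smallest adjusted p in these types was 0.841 for *Ifitm2* and 0.911 for *Ifitm3*, by edgeR. Below both HC levels lay 31.4% to 35.9% of all genes.

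Free RNA carried the same members. In empty droplets *Ifitm6* stood at 581, 814 and 1409 CPM, *Ifitm2* at 666, 525 and 860, *Ifitm3* at 1663, 1427 and 1625 and *Ifitm1* at 75.8, 79.4 and 349. Thus *Ifitm1*, *Ifitm2* and *Ifitm6* were higher in the empty droplets of the CSD library than in those of both HC libraries, and *Ifitm3* was not. edgeR called 0 of 8773 genes there (0.0% of them, 422 with an unadjusted p under 0.05). To set a level for lymphoid cells, T cell-like, NK cell-like and B cell types were pooled and all of their *S100a8* and *S100a9*, calcium-binding proteins of neutrophils, were taken as free RNA. By that measure free RNA made up 28.2%, 21.8% and 19.95% of their UMIs.

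**Figure D5:**
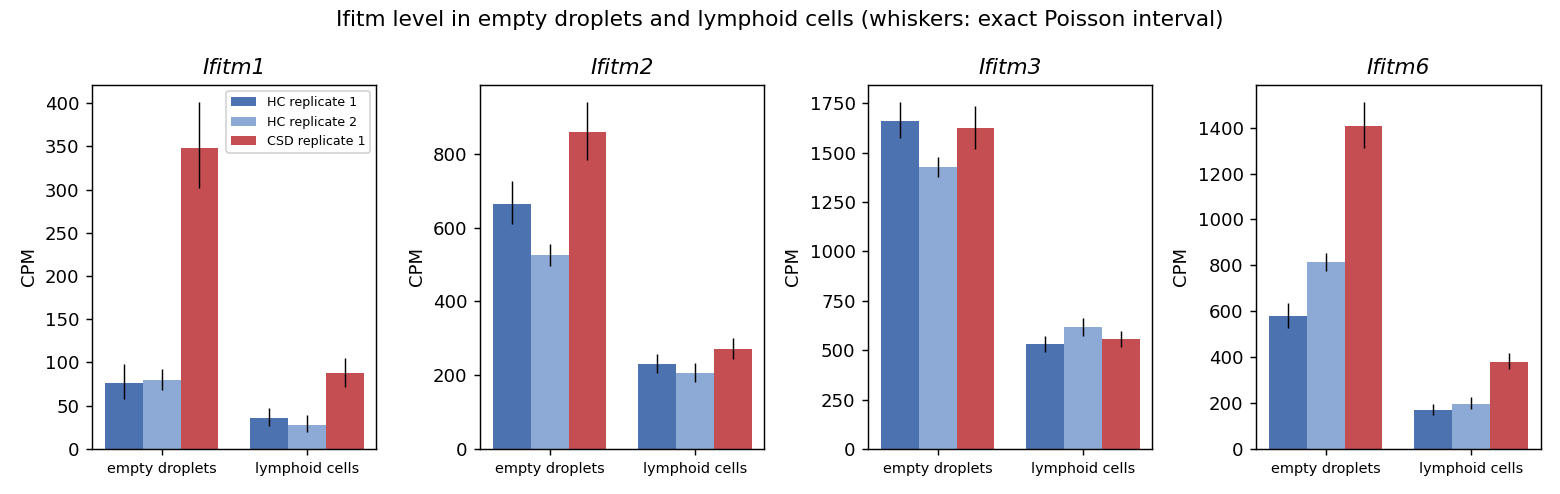
Level of each member in CPM in empty droplets (at most 100 UMIs) and in pooled lymphoid cells, 1 bar per library, with whiskers for the exact 95% Poisson interval. *Ifitm6* has 170, 197 and 380 CPM in lymphoid cells, in the same order of libraries as the 581, 814 and 1409 CPM of the empty droplets.

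*Ifitm6* in the pooled lymphoid cells was 170, 197 and 380 CPM, which is 1.04, 1.11 and 1.35 times what free RNA of that share would bring. *Ifitm1* at 35.7, 27.9 and 87.4 CPM was 1.67, 1.61 and 1.26 times that value. *Ifitm3* at 531, 618 and 555 CPM was 1.13, 1.99 and 1.71 times it, and *Ifitm2* 1.23, 1.80 and 1.58 times. The free-RNA value of *Ifitm6* was inside the 95% Poisson interval of the lymphoid level in both HC libraries (163 in 149 to 194 CPM and 177 in 173 to 224 CPM) and below it in the CSD library (281 against 346 to 416 CPM). For comparison, the other neutrophil tracer genes stood at 0.959 to 1.12 (*Camp*), 1.08 to 1.28 (*Ngp*) and 1.03 to 1.41 times (*Retnlg*). *Lcn2* stood at 1.33, 1.47 and 1.48 times. The part of free RNA in the level of any member in lymphoid cells was not tested. In neutrophil-like cells, *Ifitm6* kept 1813, 1886 and 3170 CPM and *Ifitm1* 134, 99.7 and 522 CPM once the free-RNA level found in lymphoid cells was taken away. *Ifitm2* went to 525, 549 and 977 CPM and *Ifitm3*, from 1473, 1573 and 2096, to 1005, 1262 and 1771.

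The rest of the interferon pathway was read from lists of its genes. The receptor chains were present at low levels, with *Ifnar1* at 10.7, 14.1 and 11.1 CPM and *Ifnar2* at 34.9, 65.1 and 48.5 CPM in neutrophil-like cells, where CSD lay between the HC libraries. None of the 19 interferon ligand genes passed the filter on cells there. Of 20 receptor and signalling genes 2 passed it, *Jak1* at a log2 fold change of 0.04 (SE 0.12, adjusted p = 0.885) and *Ptpn6* at -0.00 (SE 0.13, adjusted p = 0.998), a kinase and a phosphatase of cytokine signalling. With the filter on cells dropped, all 20 were tested and 16 had a positive log2 fold change. Their median was 0.21, against -0.02 over all genes, and edgeR called 0 of them. Of 60 interferon-stimulated genes outside the family, 8 were tested with the filter kept, and edgeR called 0 of them, with 0 at an unadjusted p under 0.05. Their median log2 fold change was -0.04, against -0.01 over all genes tested. The 3 above 0 were *Ifi27* (0.35, SE 0.13, adjusted p = 0.366), *Ifi27l2a* (0.20, SE 0.29, adjusted p = 0.762) and *Sp100* (0.03, SE 0.25, adjusted p = 0.955). The lowest 3 were *Samhd1* (-0.24, SE 0.12, adjusted p = 0.412), a dNTP hydrolase that restricts viruses, *Ly6e* (-0.15, SE 0.12, adjusted p = 0.578) and *Shisa5* (-0.09, SE 0.13, adjusted p = 0.740).

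With the filter on cells dropped, 48 of the interferon-stimulated genes were tested in neutrophil-like cells, 33 had a positive log2 fold change and the median was 0.18, against -0.02 over all genes. edgeR called 0 of these 48, and 10 had an unadjusted p under 0.05, as had 828 of all 7833 genes (10.6%). Genes in both tests also lay higher at this setting, as *Jak1* was at 0.18 in place of 0.04 and *Ifitm3* at 0.67 in place of 0.53. The largest values were those of *Oas1a* (1.23, SE 0.42, adjusted p = 0.321), *Oas3* (1.09, SE 0.31, adjusted p = 0.207), both sensors of viral double-stranded RNA, and *Ifit1* (1.03, SE 0.47, adjusted p = 0.476), which binds foreign RNA. In cluster 1 with the filter kept, 6 were tested and 4 were positive, with a median of 0.06 against -0.04 over all genes tested. edgeR called 0 of these 6, and 0 had an unadjusted p under 0.05. With the filter dropped, 35 were tested in cluster 1, 24 were positive and 2 rose, *Rtp4* by 1.10 (SE 0.25, adjusted p = 0.000959) and *Ifi27l2a* by 0.69 (SE 0.18, adjusted p = 0.0101), where 2.98% of all 4627 genes were called. Of the 6 neutrophil tracer genes 4 were called higher in the same test, with a median of 0.44, and their part in these values was not tested. In clusters 2 and 3 with the filter dropped, 32 and 26 were tested and the medians were -0.00 and 0.16. In monocyte-like cells with the filter dropped, 43 were tested, 10 were positive and the median was -0.37. *Ifit3*, which acts with *Ifit1*, fell by 2.40 (SE 0.60, adjusted p = 0.00774), where 1.21% of 5515 genes were called. With the filter kept, 24 were tested there, 9 were positive and the median was -0.24. edgeR called 0 of them and 4 had an unadjusted p under 0.05, as had 9.46% of all 3109 genes.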

How the data were processed

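Meningeal cells of 3 pools of 4 mice, 2 of HC and 1 of CSD animals, were captured with the 10x 3' v2 chemistry. A further CSD pool was lost at droplet encapsulation, as the study reports, and gave no library. The deposited values are whole-number UMI counts per gene and barcode, made by the authors with Cell Ranger 2 on mm10 per the labels, with no normalization and with barcodes of few UMIs included. The library of a barcode came from the number at its end, which matches the group number in the labels.

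Total depth was 9891861, 8814690 and 10206236 UMIs. Doublets were marked by Scrublet (scanpy 1.11.5) per library, as the top 5.1% of scores in CSD replicate 1, where the automatic threshold marked 0.109%. Size factors came from scran 1.30.0, with a mutual-nearest-neighbour correction and Leiden clustering at resolution 1, leaving the Ifitm genes out. Clusters were named by marker lists, and one with conflicting markers (cluster 16, led by *Krt18* and *Ly6c1*) stayed unnamed. The pro-B and pre-B lists were merged into B precursor-like after their clusters were seen. For each cell type, the UMIs of each library's cells were added up, and edgeR 4.0.16 was run on these sums (quasi-likelihood, TMM, two-sided, Benjamini-Hochberg over all genes tested in a type), on genes seen in more than 15% of cells, for types with at least 25 cells in every library. DESeq2 1.42.0 was an alternative. The pools are the replicates, so p-values measure the spread between pools.

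Named genes were the members in every type, the other Ifitm genes, the receptors, list genes past the threshold or with the 3 largest rises and falls in neutrophil-like cells, and per member the 3 genes most like it by Pearson r of log2(CPM + 10) over types, among genes of at least 50 CPM in a type. The interferon-stimulated genes named from the test without the filter, *Jak1* and *Ptpn6* were named after their values were seen. The members and lists were chosen with earlier results of these data known. Tests ran first on simulated counts. Intervals and shares cover counting error only.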

Additional observations from a re-analysis of the deposited data

Results flagged for a closer look

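The position of *Ifitm3* in CSD against the HC libraries differed between cell types. In neutrophil-like cells the CSD library lay above both HC libraries, with a log2 fold change of 0.53 (SE 0.10). In monocyte-like cells it lay below both, at -0.14 (SE 0.20), as in NK cell-like cells at -0.13 (SE 0.22) and olfactory neuron-like cells at -0.16 (SE 0.21). The difference between the cell types was not tested, and each of the 3 lower values is smaller than its standard error. With the empty-droplet profile subtracted, the value was 0.085 in NK cell-like and 0.032 in olfactory neuron-like cells.

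Barcodes with more than 100 and fewer than 500 UMIs, which are outside the cells and the empty droplets, also carried the members, 3 of them at a level in CSD above that of both HC libraries. *Ifitm1* had 659 CPM in CSD replicate 1 (28 UMIs) against 196 in HC replicate 1 and 69.1 in HC replicate 2. *Ifitm2* had 1106 CPM (47 UMIs) against 302 and 556, and *Ifitm6* 894 CPM (38 UMIs) against 377 and 859, close to HC replicate 2. *Ifitm3* had 1317 CPM (56 UMIs) in CSD against 860 and 1369 and was not above both. There were 170 such barcodes in CSD replicate 1, 281 in HC replicate 1 and 8682 in HC replicate 2.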

How the results depend on the processing

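The 4 members stayed above 0 in neutrophil-like cells in all 12 alternatives with a test, at log2 fold changes of 2.06 to 2.31 for *Ifitm1*, 0.79 to 0.97 for *Ifitm2*, 0.53 to 0.67 for *Ifitm3* and 0.71 to 0.98 for *Ifitm6*. The alternative among them that left out genes called in empty droplets removed none, as 0 were called there, so it only repeats the reported fit. Leaving out each HC library in turn gave values with no test, of 1.93 to 2.46, 0.70 to 0.92, 0.52 to 0.54 and 0.82 to 0.87, and no count of genes called. The adjusted p came under 0.05 for *Ifitm1* with DESeq2 (2.17), genes of at least 20 UMIs in any share of cells, called no filter here (2.31), doublets kept (2.07), at least 1000 UMIs (2.18), thinning to 500 UMIs (2.30), equal weight per cluster (2.15) and without cluster 20 (2.15, an alternative chosen after seeing the data). It did so for *Ifitm2* with no filter (0.95) and thinning (0.97), for *Ifitm3* with no filter (0.67), and for *Ifitm6* with no filter (0.98), doublets kept (0.82), thinning (0.92) and without cluster 20 (0.83). Genes called in neutrophil-like cells, 1 as reported, numbered 15 with DESeq2, 48 with no filter, 13 with doublets kept, 5 with at least 1000 UMIs, 0 with the empty-droplet profile subtracted, 30 with thinning, 6 with equal weight and 18 without cluster 20. The cause of these differing numbers was not tested. As the members were not chosen apart from this contrast, nothing is read from their calls in these cells or in their clusters. In clusters 1, 2 and 3, each of the 5 calls of a member stood with no filter on cells and was lost with the profile subtracted, and *Ifitm1* in cluster 1 was the 1 call that DESeq2 shared.

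Calls of members in other types, 2 of 38 as reported, numbered 0 of 38 with DESeq2 and 0 of 35 with Leiden resolution 2. They numbered 5 of 43 with no filter, 5 of 36 with no correction before clustering and 1 of 38 with the profile subtracted. The types with a call changed too. In myeloid progenitor-like cells, 1 member was called with no filter (0.483% of all genes) and 1 with at least 1000 UMIs (0.659%). With a mitochondrial share under 5% it was 2 (1.02%), and with no correction 2 (0.595%). There 0 were called as reported, with DESeq2, doublets kept, Leiden resolution 2 and the profile subtracted. The share of all genes called also differed. Its highest value in any of these types was 1.52% as reported, 0.129% with DESeq2 and 1.01% with Leiden resolution 2. It was 1.21% with no filter, 1.39% with no correction and 0.613% with the profile subtracted. Some values changed sign, many of them near 0. Subtraction gave *Ifitm3* 0.33 in B precursor-like, 0.085 in NK cell-like, 0.21 in T cell-like and 0.032 in olfactory neuron-like cells. It gave *Ifitm1* -3.43 in place of 1.52 in olfactory neuron-like cells and *Ifitm6* -6.20 in place of 0.27 in cluster 16. The CSD level left by subtraction was below 0 in both, at -1.12 and -0.43 CPM, and was set to 0 before the fit. These 2 folds therefore rest on the floor. *Ifitm3* was 0.0026 in B precursor-like cells with at least 1000 UMIs and -0.0075 in mature B-like cells with doublets kept. Leaving out each HC library gave *Ifitm3* -0.10 to 0.026 in B precursor-like, -0.22 to 0.017 in T cell-like and -0.51 to 0.67 in cluster 16 cells, *Ifitm2* -0.0067 to 0.23 in microglia-like and -0.43 to 0.066 in cluster 16 cells, and *Ifitm6* -0.42 to 1.30 in cluster 16 cells. The median of the interferon-stimulated genes was 0.18 with no filter. Levels of the members were compared between settings only in neutrophil-like and monocyte-like cells. There they moved by less than 1 SD of the libraries with doublets kept, at least 1000 UMIs, Leiden resolution 2 and no correction. Other cell types were not checked.

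No paired analysis was possible because HC and CSD share only 1 replicate number. With 1 CSD pool, a difference between pools and an effect of stress cannot be told apart.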
